A study of Arabidopsis thaliana with 102 samples.

Results

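The 9 genes described here encode core parts of ER-associated degradation (ERAD) in *Arabidopsis thaliana*. They were named one by one for their role, with no threshold on a measured value, as the ubiquitin ligases *HRD1A* (AT3G16090) and *HRD1B* (AT1G65040), their partners *HRD3A* (AT1G18260), *OS9* (AT5G35080) and *EBS7* (AT4G29960), the ubiquitin-conjugating enzyme *UBC32* (AT3G17000), and the Derlins *DER1* (AT4G29330), *DER2.1* (AT4G21810) and *DER2.2* (AT4G04860). Earlier results of these data were known when the 9 were chosen, so counts over them are not independent of these data. The expression table lists all 9 among 34133 genes, and all 9 were among the 21864 genes that passed the filter of an FPKM over 1 in at least 1 library. Seedlings of 5 days were treated for 6 h with tunicamycin (Tm, 500 ng/mL) or with its solvent DMSO as mock control, then moved to medium without the drug, and sampled after 0, 12 and 24 h there. The genotypes were *bzip28-2* and *bzip60-2*, each a single T-DNA insertion allele in Col-0 that the labels call a knockout of 1 of the transcription factors bZIP28 and bZIP60, and wild-type Col-0. Each of the 18 groups had 3 replicates, and each replicate was a pool of 12 whole seedlings, so fewer cells of a type and less RNA per cell cannot be told apart. The series holds 102 samples, of which 54 are these RNA libraries and 48 are ChIP and input libraries from seedlings that carry GFP-bZIP28 under the 35S promoter in Col-0 or GFP-bZIP60 under its own promoter in *bzip60-2*.

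Proteins that fail to fold in the endoplasmic reticulum (ER) are recognised there, moved back across the ER membrane, tagged with ubiquitin and degraded by the proteasome in the cytosol. In the best known route, a lectin of the OS9 type and HRD3 present a misfolded glycoprotein to the membrane ligase HRD1, and Derlins are thought to take part in its passage through the membrane. Tm blocks the first step of protein N-glycosylation and so loads the ER with misfolded proteins. The unfolded protein response (UPR) that follows is driven in plants by bZIP28 and bZIP60. bZIP28 moves from the ER membrane to the Golgi, where proteolysis frees its active part, and the mRNA of bZIP60 is spliced by IRE1.

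The values are FPKM, that is fragments divided by transcript length and by the mapped fragments of the library, which allows levels of different genes to be set side by side per length. The depth of the libraries is known only in relative terms, and it ran from 0.832 to 1.27 of their median. Pairs of libraries within a group had a median correlation of 0.982. The *bzip28-2* Tm library of replicate 2 at 24 h correlated least with its own group (mean r = 0.9717). It lay only just below the next library, *bzip60-2* DMSO replicate 2 at 12 h (0.9719). All 9 ERAD genes had their lowest value of the group in that *bzip28-2* library. The Tm treatment was seen in *BiP3*, an ER chaperone gene of the UPR, whose log2 fold change lay between 5.87 and 8.86 in the 9 pairs of groups. *bZIP28* was not reduced in *bzip28-2* after DMSO at 0 h, with 25.01, 23.0 and 26.1 FPKM against 9.93, 10.9 and 12.3 FPKM in Col-0, while after Tm at 24 h it had 12.7, 14.9 and 13.8 FPKM in *bzip28-2* against 26.1, 25.2 and 26.2 FPKM in Col-0. *bZIP60* had 33.4, 31.2 and 37.8 FPKM in *bzip60-2* after DMSO at 0 h against 29.6, 36.9 and 39.4 FPKM in Col-0, and after Tm 116, 119 and 95.4 FPKM in *bzip60-2* against 205, 216 and 208 FPKM in Col-0. Values for whole genes do not check an insertion within the gene. All 8 markers fixed for shoot and root cells were detected in every library (lowest value 0.565 FPKM). The summed FPKM of the 4 root markers was lower after Tm without overlap in all 9 pairs of groups (for example 18.3 to 19.3 in Tm against 44.5 to 57.0 in DMSO at 0 h in *bzip28-2*). In *bzip28-2* and *bzip60-2* at 12 and 24 h only 3 of the 4 root markers had a lower mean after Tm, and in the other pairs all 4 did. The summed FPKM of the 4 shoot markers was lower without overlap in 7 of 9 pairs (for example 9966 to 12656 in Tm against 34034 to 43083 in DMSO at 24 h in Col-0). In *bzip60-2* at 0 h 0 of the 4 shoot markers had a lower mean after Tm, and in the other pairs all 4 did. The part of these shifts in the results below was not tested.

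*HRD1B* had the highest mean FPKM of the members in each Tm group and *HRD1A* the lowest, although both encode HRD1-type RING ubiquitin ligases of the ER membrane. In Col-0 after DMSO at 0 h, *HRD1B* averaged 32.3 ± 3.95 FPKM (SD, n = 3 for this and the other means) and *DER1* 29.8 ± 2.61 FPKM, and their replicates overlapped. *UBC32* (22.8 ± 1.88 FPKM), *OS9* (19.7 ± 2.73), *DER2.1* (18.6 ± 3.27), *EBS7* (18.3 ± 1.85) and *HRD3A* (16.9 ± 0.597) followed, each overlapping with the next. *DER2.2* (11.4 ± 2.21 FPKM) and *HRD1A* (9.36 ± 2.42 FPKM) were lowest and overlapped with each other. In Col-0 after Tm at 0 h the range had widened, with *HRD1B* at 268 ± 13.0 FPKM, *DER1* at 138 ± 18.2, *DER2.1* at 121 ± 12.1, *OS9* at 91.8 ± 7.19, *UBC32* at 78.1 ± 7.75, *HRD3A* at 64.3 ± 1.99 and *EBS7* at 64.0 ± 3.84 FPKM. *DER2.2* (16.2 ± 1.28 FPKM) and *HRD1A* (11.3 ± 0.632 FPKM) remained at the lower end, now with no overlap between them. Among the higher members, *DER1* overlapped with *DER2.1*, *OS9* with *UBC32*, and *HRD3A* with *EBS7*.

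**Figure D1:**
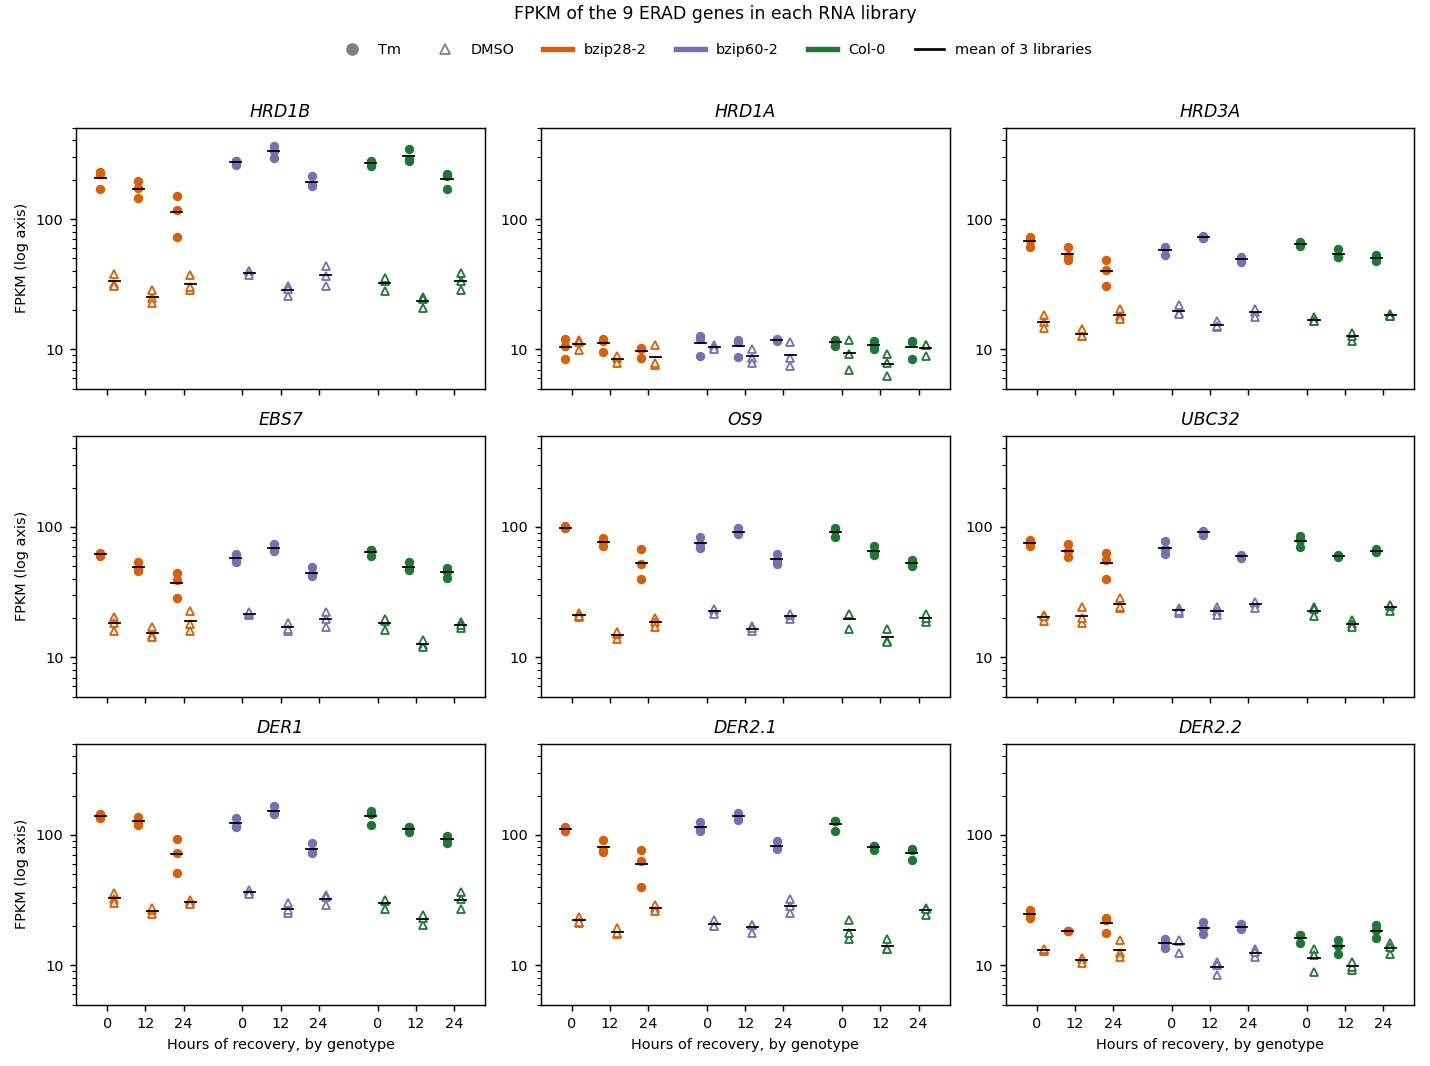
FPKM (log axis) of each of the 9 ERAD genes in each of the 54 RNA libraries, with Tm left of DMSO at 0, 12 and 24 h of recovery and 1 colour for each genotype. *HRD1B* lies between 73.0 and 364 FPKM in every Tm library and between 20.8 and 43.9 FPKM in every DMSO library, while *HRD1A* stays between 6.22 and 12.6 FPKM in all of them.

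*HRD1B* rose strongly after Tm in all 3 genotypes. At 12 h it had 195, 145 and 171 FPKM after Tm in *bzip28-2*, against 24.7, 28.4 and 22.6 FPKM after DMSO. In *bzip60-2* the values at 12 h were 333, 292 and 364 FPKM after Tm, against 30.8, 29.0 and 25.6 FPKM after DMSO. In Col-0 they were 277, 342 and 291 FPKM after Tm, against 20.8, 25.1 and 24.5 FPKM after DMSO. The Tm libraries were thus far above the DMSO libraries in each genotype, and the 3 *bzip28-2* Tm libraries lay below all Tm libraries of Col-0. The log2 fold change of *HRD1B* at 0, 12 and 24 h, on the log2(FPKM + 1) scale used for all fold changes here, was 2.59 ± 0.15, 2.70 ± 0.14 and 1.75 ± 0.28 (SE) in *bzip28-2*, 2.78 ± 0.06, 3.49 ± 0.11 and 2.35 ± 0.15 in *bzip60-2*, and 3.02 ± 0.10, 3.64 ± 0.11 and 2.55 ± 0.15 in Col-0. The adjusted p in limma at 0, 12 and 24 h was 0.00109, 8.3e-05 and 0.0107 in *bzip28-2*, 0.000163, 7.5e-05 and 0.000716 in *bzip60-2*, and 0.000271, 2.7e-05 and 0.000192 in Col-0. Only the value of *bzip28-2* at 24 h missed the threshold of 0.01, and without Tm replicate 2 *HRD1B* passed there too (log2 fold change 2.03, adjusted p = 0.00285). At 0 h in *bzip28-2* its adjusted p in limma was 0.0125 without DMSO replicate 2 and 0.01 without Tm replicate 1. At 0 h the fold change of *HRD1B* ranked 44th from the top of the 21864 genes in *bzip28-2*, 9th in *bzip60-2* and 22nd in Col-0.

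*HRD1A*, by contrast, passed the test in none of the 9 comparisons of Tm with DMSO. It had 12.0, 8.48 and 10.7 FPKM after Tm in *bzip28-2* at 0 h, against 9.93, 11.8 and 11.5 FPKM after DMSO. In *bzip60-2* at 0 h it had 12.6, 8.93 and 12.0 FPKM after Tm, against 10.9, 10.3 and 10.1 FPKM after DMSO. In Col-0 at 0 h it had 11.4, 10.6 and 11.9 FPKM after Tm, against 7.0, 11.8 and 9.24 FPKM after DMSO. Both treatments overlapped in each genotype at that time. The log2 fold changes of *HRD1A* over all genotypes and times lay between -0.09 and 0.45, and the lowest adjusted p in limma was 0.0427, for *bzip28-2* at 12 h. The ratio of the paralogs within each library was computed after these values were seen. *HRD1B* FPKM was 19.95 ± 1.46 times that of *HRD1A* after Tm at 0 h in *bzip28-2*, against 3.06 ± 0.663 times after DMSO. The ratio at 0 h was 24.8 ± 3.83 after Tm and 3.74 ± 0.11 after DMSO in *bzip60-2*, and 23.7 ± 1.74 after Tm and 3.55 ± 0.620 after DMSO in Col-0. The exons of *HRD1A* and *HRD1B* share no run of 50 bases, and 1 run of 30 bases.

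The ligase partners and *UBC32* rose in all comparisons but those noted at 24 h in *bzip28-2*. *HRD3A*, the homologue of yeast Hrd3 and mammalian SEL1L that holds substrates at the ligase, reached log2 fold changes of 1.99, 1.94 and 1.05 at 0, 12 and 24 h in *bzip28-2*, 1.5, 2.16 and 1.31 in *bzip60-2*, and 1.87, 2.01 and 1.41 in Col-0. *OS9*, the ER lectin that binds trimmed glycans of misfolded glycoproteins, had 97.4, 97.5 and 102 FPKM after Tm at 0 h in *bzip28-2*, against 22.0, 20.4 and 20.9 FPKM after DMSO. In *bzip60-2* at 0 h it had 69.5, 83.9 and 73.4 FPKM after Tm and 23.2, 23.6 and 21.6 FPKM after DMSO, and in Col-0 83.7, 97.4 and 94.2 FPKM after Tm and 16.6, 20.9 and 21.6 FPKM after DMSO. *OS9* after Tm was thus several times above DMSO in each genotype, without overlap, and it was the only member called in all 9 comparisons, with log2 fold changes between 1.37 and 2.40. *EBS7*, a plant ER membrane protein that binds and stabilises HRD1A, had log2 fold changes between 0.94 and 1.96. *UBC32*, a membrane-anchored ubiquitin-conjugating enzyme of ERAD, had log2 fold changes between 1.00 and 1.96. For *HRD3A*, *EBS7* and *UBC32* each comparison but *bzip28-2* at 24 h passed the limma test, with adjusted p of at most 0.00232, and at 24 h in *bzip28-2* their adjusted p was 0.0131, 0.0237 and 0.0162.

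The Derlins, ER membrane proteins related to yeast Der1, split in their response. *DER1* had log2 fold changes of 2.06, 2.24 and 1.17 at 0, 12 and 24 h in *bzip28-2*, 1.72, 2.45 and 1.24 in *bzip60-2*, and 2.17, 2.26 and 1.52 in Col-0, and passed the limma test in all but *bzip28-2* at 24 h (adjusted p = 0.0150). *DER2.1* had 2.28, 2.09 and 1.05 in *bzip28-2*, 2.43, 2.78 and 1.5 in *bzip60-2*, and 2.64, 2.43 and 1.43 in Col-0, and again passed in all but *bzip28-2* at 24 h (adjusted p = 0.0267). For its paralog *DER2.2* the highest log2 fold change was 0.93. *DER2.2* had 24.1, 23.2 and 26.7 FPKM after Tm at 0 h in *bzip28-2*, against 12.8, 13.1 and 13.3 FPKM after DMSO. In *bzip60-2* at 0 h it had 15.9, 13.6 and 14.8 FPKM after Tm and 15.3, 15.6 and 12.5 FPKM after DMSO. In Col-0 at 0 h it had 14.8, 16.98 and 16.97 FPKM after Tm and 8.96, 13.3 and 11.9 FPKM after DMSO. Treatments were apart in *bzip28-2* and Col-0 and overlapped in *bzip60-2*. *DER2.2* rose in *bzip28-2* at 0 h (log2 fold change 0.87, adjusted p = 0.00288 in limma) and 12 h (0.69, adjusted p = 0.000584), and in *bzip60-2* at 12 h (0.93, adjusted p = 0.00285) and 24 h (0.62, adjusted p = 0.00390). It passed at no time in Col-0, where its log2 fold changes were 0.49, 0.46 and 0.40. At 0 h *DER2.1* FPKM was 4.52 ± 0.159 times that of *DER2.2* after Tm and 1.69 ± 0.0885 times after DMSO in *bzip28-2*. That ratio was 7.84 ± 0.527 after Tm and 1.44 ± 0.153 after DMSO in *bzip60-2*, and 7.43 ± 0.169 after Tm and 1.65 ± 0.156 after DMSO in Col-0. *DER2.1* overlaps 2 annotated genes on the other strand by 50 and 230 bases, *DER2.2* overlaps 2 by 66 and 217 bases, and *EBS7* overlaps 1 by 7 bases. The study made stranded libraries and took strand into account in its read counts. The strand setting behind the FPKM values is not stated, so reads in those stretches cannot be assigned with certainty.

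**Figure D2:**
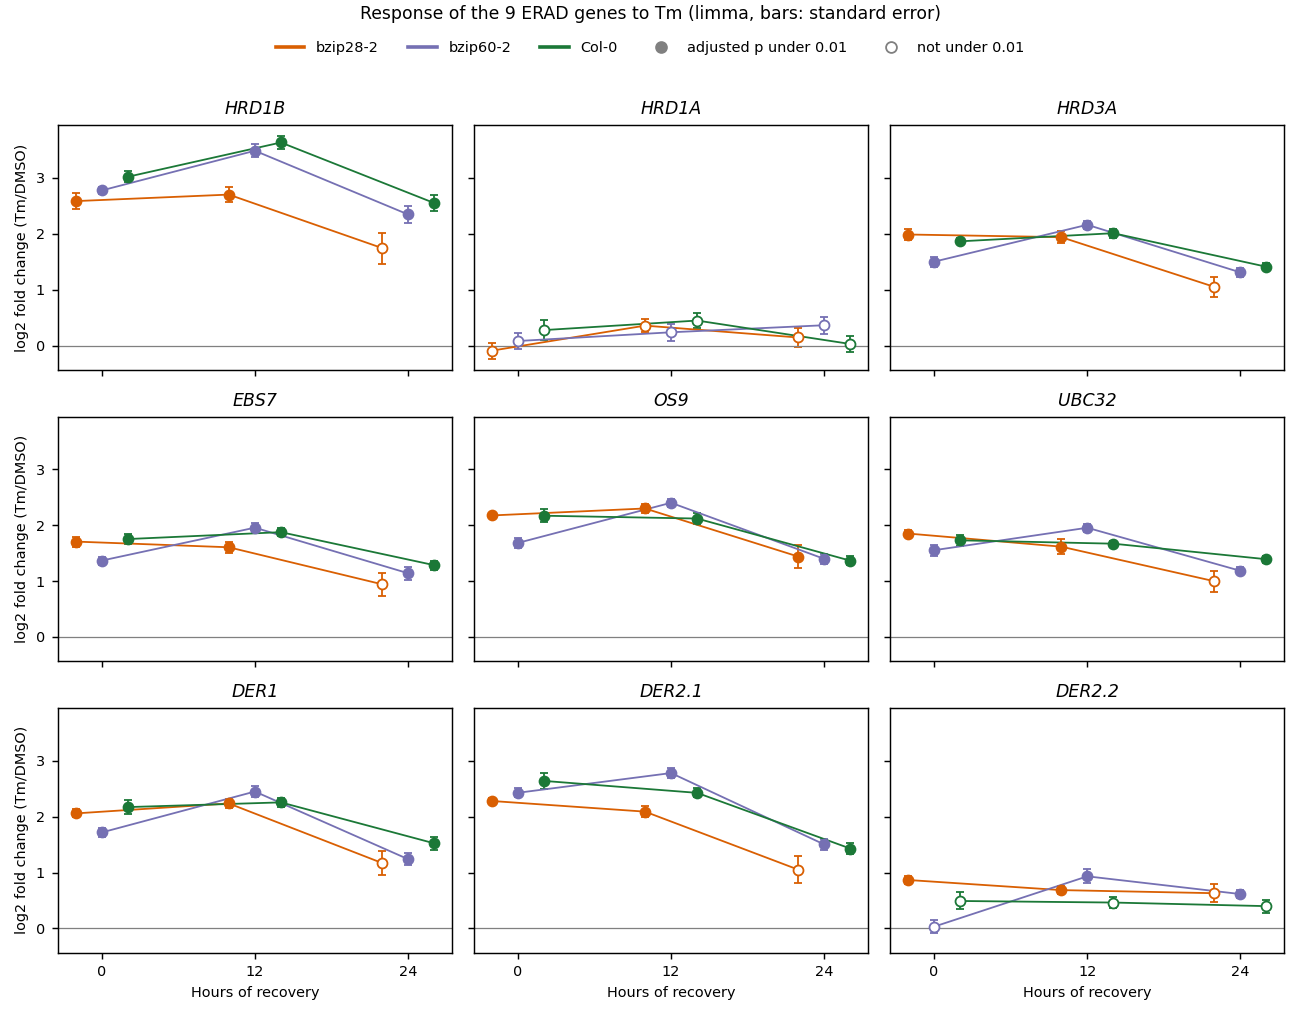
Log2 fold change (Tm over DMSO, log2(FPKM + 1) scale) of the 9 ERAD genes at 0, 12 and 24 h of recovery in *bzip28-2*, *bzip60-2* and Col-0, with limma standard errors as bars. *HRD1B* has the highest value in each genotype and reaches 3.64 in Col-0 at 12 h, and *HRD1A* lies between -0.09 and 0.45.

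Counted over the 9 members, 8, 8 and 1 rose at 0, 12 and 24 h in *bzip28-2*, 7, 8 and 8 in *bzip60-2*, and 7, 7 and 7 in Col-0, at an adjusted p under 0.01 in limma. Of all genes tested, 1.44%, 20.1% and 5.26% rose at those times in *bzip28-2*, 0.581%, 16.2% and 11.2% in *bzip60-2*, and 0.681%, 21.2% and 16.5% in Col-0. No member fell in any of the 9 comparisons in limma, and the log2 fold change was below 0 only for *HRD1A* in *bzip28-2* at 0 h (-0.09). In all, 1.01%, 12.6% and 2.87% of the genes tested fell at 0, 12 and 24 h in *bzip28-2*, 0.471%, 10.8% and 3.4% in *bzip60-2*, and 0.467%, 7.7% and 8.44% in Col-0. The median log2 fold change of the members ranged from 1.05 (*bzip28-2*, 24 h) to 2.16 (*bzip60-2*, 12 h), and that of all genes from -0.06 to 0.11. The 1 member called in *bzip28-2* at 24 h was *OS9* (log2 fold change 1.44, adjusted p = 0.00741 in limma). There 8 members had an unadjusted p under 0.05, as did 9992 of the 21864 genes in either direction. The count of 1 depended on single libraries: without Tm replicate 2, *HRD1B*, *HRD3A*, *OS9*, *UBC32*, *DER1* and *DER2.1* were called, and with any of the other 5 libraries left out 0 were. Of all genes 1778 were called there in either direction. This became 3046 without Tm replicate 2, and 105 to 509 with any of the other 5 libraries left out. At 0 h, counts fell to 4 in *bzip28-2* without DMSO replicate 2, to 2 in *bzip60-2* without Tm replicate 1, DMSO replicate 1 or DMSO replicate 2, and in Col-0 to 2 without Tm replicate 2 or 3 and to 4 without DMSO replicate 3. The calls over all genes fell with the same omissions. They went from 536 to 69 in *bzip28-2*, from 230 to 25, 31 and 27 in *bzip60-2*, and from 251 to 61, 40 and 86 in Col-0. In *bzip60-2* at 24 h the count was 5 without Tm replicate 2, where 499 of all genes were called against 3188 with it. In no genotype did any of these omissions turn the direction of a called member.

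The size of the response was then compared between time-points within each genotype. In Col-0 only *HRD1B* had a higher fold change at 12 h than at 0 h, with per-replicate values of 3.67, 3.72 and 3.51 at 12 h against 3.14, 2.98 and 2.94 at 0 h, a difference of 0.61 ± 0.09 (SE, adjusted p = 0.00666 in limma, where 18.2% of all genes were called higher). This call held with each replicate left out. At 24 h against 0 h in Col-0, 5 members had a lower fold change (10.5% of all genes were called lower), namely *DER2.1* (difference -1.21, adjusted p = 0.00310 in limma), *OS9* (-0.80, 0.00283), *DER1* (-0.65, 0.0261), *EBS7* (-0.47, 0.0281) and *HRD3A* (-0.46, 0.0156). In *bzip60-2*, 6 members had a higher fold change at 12 h than at 0 h, against 14.7% of all genes called higher. They were *DER2.2* (difference 0.90), *DER1* (0.73), *OS9* (0.72), *HRD1B* (0.71), *HRD3A* (0.66) and *EBS7* (0.59), with adjusted p between 0.0134 and 0.0293 in limma. For *OS9* the per-replicate log2 fold changes in *bzip60-2* were 2.28, 2.44 and 2.49 at 12 h against 1.54, 1.79 and 1.72 at 0 h, with no overlap. The count of 6 ranged from 0 to 5 with 1 replicate left out, being 0 without replicate 3 at 12 h or replicate 1 at 0 h, 1 without replicate 3 at 0 h, 3 without replicate 2 at 0 h and 4 without replicate 2 at 12 h. Over all genes, 4814 calls in either direction became 1754 to 4177. The Col-0 count at 24 h of 5 became 3 without replicate 3 at 24 h or any replicate at 0 h. There 6125 calls over all genes became 3361 to 5410 with 1 replicate left out. *DER2.1* was the 1 member with a lower fold change at 24 h in *bzip60-2* (-0.93, adjusted p = 0.0225 in limma, against 1.51% of all genes). Without replicate 2 or 3 at 24 h, or replicate 1 or 3 at 0 h, it was not called, and without replicate 1 at 24 h 2 members were. Over all genes, 2409 calls in either direction became 868 to 1702 with 1 replicate left out. *UBC32* was the 1 in *bzip28-2* at 24 h (-0.85, adjusted p = 0.0490 in limma, against 2.85% of all genes). There 6 members had an unadjusted p under 0.05, as did 6355 of the 21864 genes in either direction. With no replicate block, 6 members were called lower at 24 h in *bzip28-2* and 2 in *bzip60-2*. Without replicate 1 at 24 h or any replicate at 0 h no member was called in *bzip28-2*, and without replicate 2 at 24 h 3 were. Over all genes, 1900 calls in either direction became 109 to 345 with those omissions and 4408 without replicate 2 at 24 h. In *bzip28-2* at 12 h against 0 h, 0 members were called by limma and 0 had an unadjusted p under 0.05, while 31.2% of all genes were called in either direction.

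The same times were compared in mock-treated Col-0 seedlings. No member passed between 12 h and 0 h or between 24 h and 0 h after DMSO, although 14.3% and 6.46% of all genes did. In limma 7 and 1 members had an unadjusted p under 0.05, a threshold to which these shares do not apply. The count of all genes at that threshold is not given here, so these counts show nothing particular to the members. At 12 h all 9 members were lower than at 0 h, by log2 differences of -0.18 to -0.49, beside a median of -0.23 over all genes.

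The comparison of genotypes asks whether the response of these genes depends on bZIP28 or bZIP60. It was made on the per-replicate log2 fold changes, which pair Tm and DMSO libraries by replicate number, and all comparisons with Col-0 share the Col-0 libraries. No member passed the adjusted p under 0.05 in limma at any time. In the fit with no replicate block, where the libraries are not paired, *HRD1B* passed at 12 h for *bzip28-2* against Col-0 (adjusted p = 0.0243 in limma) and *DER2.2* at 0 h for *bzip60-2* against *bzip28-2* (adjusted p = 0.0276). For *bzip28-2* against Col-0, 3, 2 and 0 members had an unadjusted p under 0.05 at 0, 12 and 24 h. So did 1714, 4807 and 2907 of the 21864 genes, while 0.00457%, 3.39% and 0% of all genes were called at the adjusted p. For *bzip60-2* against Col-0 an unadjusted p under 0.05 was found for 6, 4 and 0 members and for 1211, 4386 and 3378 genes. At the adjusted p 0.00457%, 3.46% and 0.00457% of all genes were called. For *bzip60-2* against *bzip28-2* it was found for 6, 3 and 0 members and for 2412, 1611 and 1775 genes, with 0.0915%, 0.0457% and 0.00457% of all genes called at the adjusted p. The lowest adjusted p of any member was that of *HRD1B* at 12 h, whose log2 fold changes were 2.93, 2.31 and 2.87 in *bzip28-2* against 3.67, 3.72 and 3.51 in Col-0, without overlap. The difference was -0.93 ± 0.18 (SE, adjusted p = 0.0560 in limma). Its adjusted p lay between 0.0243 and 0.188 over 13 alternatives, of which 3 called it, while the difference stayed between -1.05 and -0.73. At 0 h the difference of *HRD1B* between *bzip28-2* and Col-0 was -0.44 ± 0.15 (adjusted p = 0.630 in limma), and at 24 h it was -0.81 ± 0.40 (adjusted p = 0.458), or -0.41 without *bzip28-2* replicate 2. The second pattern concerned *DER2.2* at 0 h, with log2 fold changes of 0.05, -0.19 and 0.23 in *bzip60-2* against 0.87, 0.78 and 0.95 in *bzip28-2*, and 0.66, 0.33 and 0.48 in Col-0. The difference between *bzip60-2* and *bzip28-2* was -0.84 ± 0.14 (SE, adjusted p = 0.229 in limma). Its adjusted p lay between 0.0276 and 0.652 over 13 alternatives, of which 2 called it, while the difference stayed between -0.94 and -0.73.

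**Figure D3:**
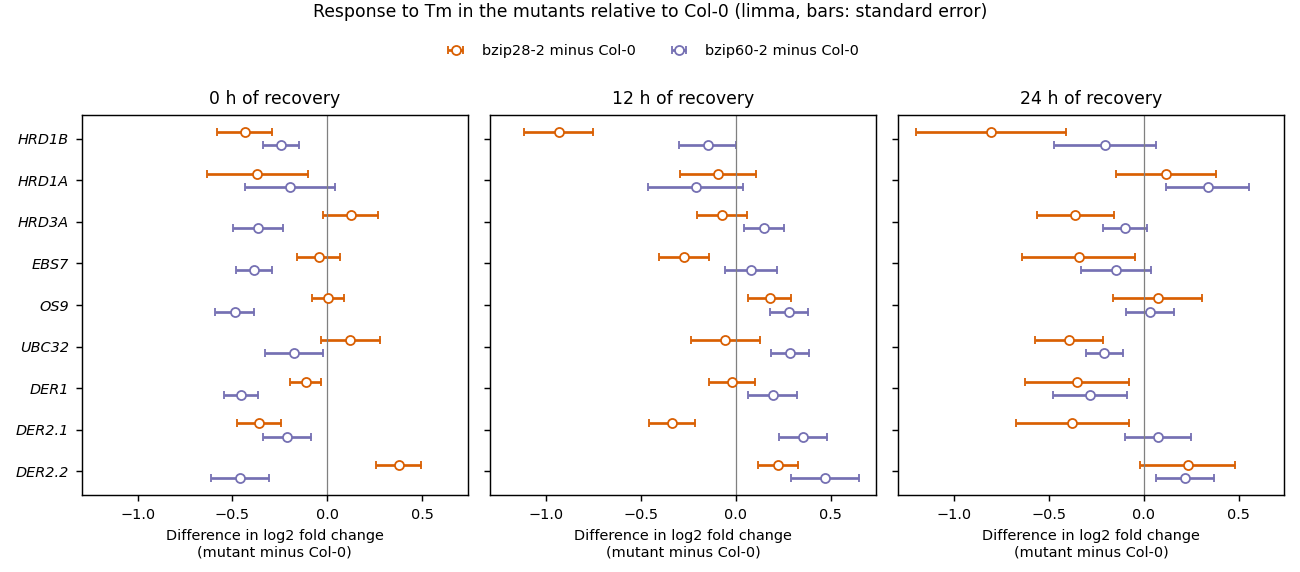
Difference in log2 fold change (Tm over DMSO) of each ERAD gene in *bzip28-2* and *bzip60-2* relative to Col-0 at 0, 12 and 24 h, with limma standard errors as bars and a line at no difference. *HRD1B* in *bzip28-2* lies left of the line at each time (-0.44, -0.93 and -0.81), and no point passed the adjusted threshold.

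Levels under 1 treatment were compared as well. After DMSO no member passed between a mutant and Col-0 in limma at 0, 12 or 24 h. For *bzip28-2* 0, 3 and 0 members had an unadjusted p under 0.05, and 0.0183% of all genes were called at the adjusted p at each time. For *bzip60-2* these were 4, 5 and 0 members, and 0.00915%, 0.0229% and 0.0183% of all genes. At 0 h the unadjusted p was under 0.05 for 1909 of the 21864 genes in *bzip28-2* and for 4195 in *bzip60-2*. That number is not given here for 12 and 24 h, so the member counts at those times have no background. After Tm at 12 h, 6 members were higher in *bzip60-2* than in Col-0, where 7.82% of all genes were called higher. *DER2.1* showed the largest of these differences, with 143, 129 and 148 FPKM in *bzip60-2* against 76.5, 82.2 and 82.3 FPKM in Col-0 (log2 difference 0.79 ± 0.07, adjusted p = 0.00349 in limma). *UBC32* had 87.1, 92.0 and 92.9 FPKM in *bzip60-2* against 60.7, 60.0 and 58.7 FPKM in Col-0 (0.59 ± 0.04, adjusted p = 0.00318). *HRD3A*, *OS9*, *EBS7* and *DER1* were higher by log2 differences of 0.43 to 0.48, with adjusted p between 0.00808 and 0.00935 in limma, and *HRD1B* had a difference of 0.12 (adjusted p = 0.494). These calls lay close to the threshold: leaving out *bzip60-2* replicate 1 left 2 of them, and leaving out any of the other 5 libraries left 0. The calls over all genes with these omissions are not given here. Whether the members lost more calls than other genes is thus not shown. In the other comparisons after Tm no member passed in limma. For *bzip28-2* at 0, 12 and 24 h, 2, 4 and 1 members had an unadjusted p under 0.05 and 0.0366%, 1.29% and 0.178% of all genes were called. For *bzip60-2* at 0 and 24 h, 1 and 2 members had an unadjusted p under 0.05 and 0.0412% and 0.453% of all genes were called. These shares are at the adjusted p, so they are no background for the member counts at an unadjusted p. Those counts are therefore not read as a result about the members. *HRD1B* at 12 h came closest in *bzip28-2*, with a log2 difference from Col-0 of -0.83 ± 0.14 (adjusted p = 0.0220).

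A wider list of 18 other ERAD genes, which holds paralogs of the members and the enzymes that act beside and after them, was tested in the same way. Of these 18, 1, 12 and 3 rose at 0, 12 and 24 h in *bzip28-2*, 1, 10 and 5 in *bzip60-2*, and 1, 11 and 9 in Col-0, and none fell. Over all genes tested the share that rose was likewise highest at 12 h in each genotype, at 20.1% in *bzip28-2*, 16.2% in *bzip60-2* and 21.2% in Col-0, and it was 5.26%, 11.2% and 16.5% at 24 h. Their median log2 fold change in the 9 comparisons lay between 0.12 and 0.63. *DOA10B*, a ubiquitin ligase of the second ER membrane type known from yeast Doa10, was the gene that rose at 0 h in each genotype, with log2 fold changes of 2.77, 2.22 and 1.55 at 0, 12 and 24 h in *bzip28-2*, 1.65, 2.1 and 1.41 in *bzip60-2*, and 2.42, 1.62 and 0.94 in Col-0. The value of *DOA10B* in *bzip28-2* at 24 h did not pass (adjusted p = 0.0196 in limma). *CDC48B* and *CDC48C*, ATPases of the family that extracts ubiquitinated proteins from the membrane, had log2 fold changes of 1.33 and 0.93 in Col-0 at 12 h and 1.81 and 1.18 at 24 h, all called, against 0.68 and 0.17 at 0 h, not called. *PNG1*, which removes N-glycans from misfolded proteins, and *UBC33*, a relative of *UBC32*, rose in Col-0 at 12 h by log2 fold changes of 1.39 and 1.08, and had 0.15 and 0.11 at 0 h. *HRD3B*, the paralog of *HRD3A*, was called in none of the 9 comparisons.

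Over the 18 group means of log2(FPKM + 1), the members other than *HRD1A* and *DER2.2* followed each other closely, with Pearson r between 0.974 and 0.996. These correlations are descriptions over groups that share treatments, and they carry no p. The gene most like *HRD3A* among all genes tested was *EBS7* (r = 0.996), followed by *UBC32* (0.994) and *OS9* (0.993). For *OS9*, *EBS7* and *DER1*, the 3 most similar genes were other members, except for AT3G51980, annotated as an ARM repeat protein, which had r = 0.993 with *OS9* and 0.995 with *EBS7*. *UBC32* was closest to *HRD3A* (0.994), *EBS7* (0.990) and *DER2.1* (0.989), and *DER2.1* to *UBC32* (0.989), *HRD3A* (0.989) and *EBS7* (0.988). *HRD1B* was closest to 3 genes outside the list, each with r = 0.992, namely *GPT*, the GlcNAc-1-phosphate transferase that Tm inhibits, the nucleotide sugar transporter gene *UTR1*, and AT3G53668. *HRD1A* was closest to *TOM2A* (0.910), *RCE1* (0.905) and AT1G62880 (0.891), and *DER2.2* to *MEE44* (0.957), *Tic20-IV* (0.939) and AT3G53930 (0.936). These neighbours depend on the measure of likeness. By Spearman's rho the 3 closest genes held all 3 of those named for *UBC32*, 2 of 3 for *HRD3A* and *OS9*, 1 of 3 for *HRD1B*, *EBS7*, *DER1*, *DER2.1* and *DER2.2*, and 0 of 3 for *HRD1A*. Between *HRD1A* and the other members Pearson's r lay between 0.656 and 0.744, and between *DER2.2* and the others between 0.656 and 0.834.

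The ChIP-seq peak lists place bZIP28 or bZIP60 at the start sites of 6 of the 9 members. There is 1 list per protein and time. The authors called peaks in each sample, kept those reproducible between replicates, and removed Tm peaks that overlapped a DMSO peak unless they were much stronger after Tm. Of the 34133 genes in the expression table, the bZIP28 lists at 0, 12 and 24 h name 0.328%, 0.199% and 1.11%, and the bZIP60 lists 0.671%, 0.105% and 0.457%. The scores (enrichment values of MACS2) thus have no replicate error, and a gene outside a list is not shown to be unbound. The bZIP28 list at 0 h holds 130 peaks with a median score of 4.16, and it names *DER1* (score 5.79, rank 28), *DER2.1* (4.16, rank 66), *HRD3A* (3.71, rank 80), *HRD1B* (3.68, rank 82) and *OS9* (3.10, rank 103). The bZIP28 list at 24 h holds 454 peaks with a median of 3.52, and it names *HRD1B* (8.32, rank 35), *DER1* (5.98, rank 80), *DER2.1* (4.98, rank 115), *HRD3A* (4.10, rank 159) and *EBS7* (2.90, rank 340). The bZIP60 list at 0 h holds 250 peaks with a median of 3.10, and it names *HRD3A* (4.4, rank 53), *DER2.1* (3.91, rank 76), *DER1* (3.64, rank 86), *OS9* (3.64, rank 87) and *EBS7* (2.45, rank 207). The lists of bZIP28 at 12 h (92 peaks), bZIP60 at 12 h (47) and bZIP60 at 24 h (170) name 0 members. *HRD1B* thus appears in the bZIP28 lists at 0 and 24 h and in none of the bZIP60 lists, while *HRD1A*, *UBC32* and *DER2.2* appear in no list. Each of the 15 peaks covers the start site of its member. The *HRD3A* peaks also lie within 1 kb of the start of 1 other gene and those of *DER2.1* of 2 others.

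**Figure D4:**
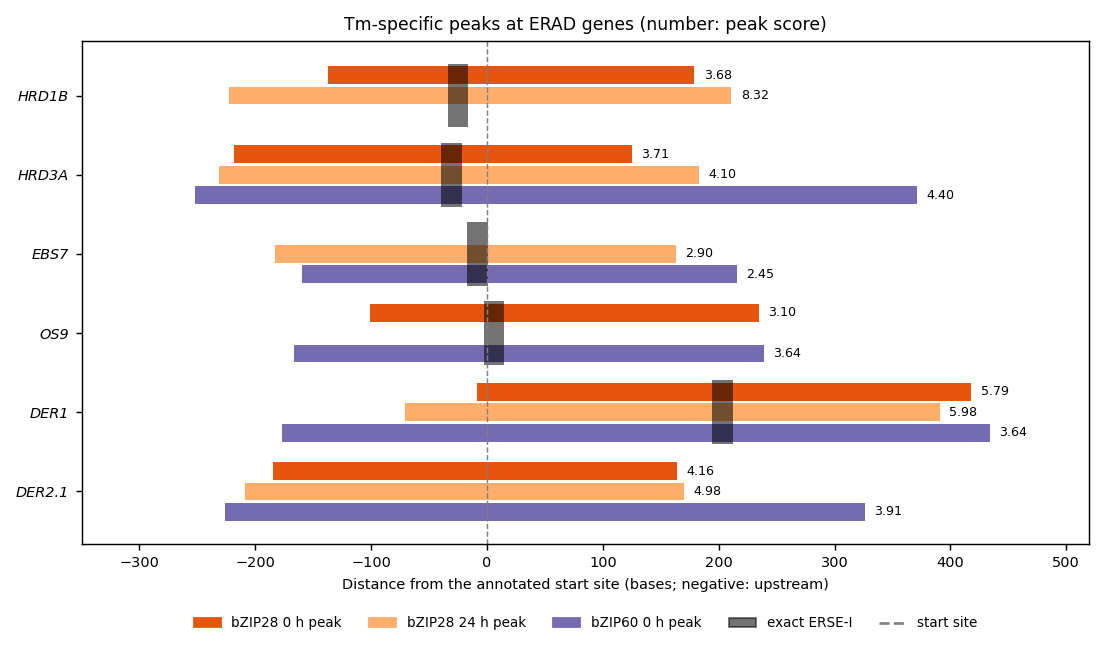
Peaks of GFP-bZIP28 and GFP-bZIP60 at each ERAD gene, drawn as bars over the distance from the start site of the gene in bases, for each protein and time whose list names a member, with exact ERSE-I matches marked. The bars at *HRD1B*, *HRD3A*, *OS9*, *EBS7* and *DER1* hold the mark, those at *DER2.1* do not, and *HRD1A*, *UBC32* and *DER2.2* have no bar.

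The start regions were read for the UPR elements that the study searched. ERSE-I, written CCAATNNNNNNNNNNCACG and searched on both strands, occurs in the 1000 bases before the start of *HRD1B* and *HRD3A*, which are 2 of 9 members, and of 1.56% of the 21627 tested genes found in the RefSeq TAIR10.1 reference. Since the peaks reach across the start sites, the 250 bases to each side were searched too, a window chosen after the peaks were seen. There 5 members have ERSE-I (*HRD1B*, *HRD3A*, *OS9*, *EBS7* and *DER1*), against 1.46% of the 21627 genes. These 5 sites lie in 12 of the 15 peaks at members, and the 3 peaks without one are those of *DER2.1*. They are shown because they are the letters that 5 of the 6 bound start regions have in common, each read from RefSeq TAIR10.1 5′ to 3′ on the strand of the element with 5 bases to each side, the fixed letters of ERSE-I in capitals:
HRD1B: cgcaaCCAATgatataacgaCACGtgtat
HRD3A: catatCCAATagtaaccggcCACGtaact
OS9: gacatCCAATtaaaattcgaCACGtaatg
EBS7: cttatCCAATtaaagttggaCACGtcacc
DER1: gttatCCAATcataccttgcCACGtcgtg

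All 5 elements lie on the strand opposite to their gene, and in each the base after CACG is t. The *HRD1B* element is at chr1:24163685-24163703, with its middle 25 bases before the start of the gene (chr1:24159685-24163669, minus strand). That of *HRD3A* is at chr1:6282166-6282184, 31 bases before the start (gene chr1:6278788-6282144, minus strand). Those of *EBS7* (chr4:14662425-14662443) and *OS9* (chr5:13356869-13356887) run across the annotated start site of the gene, and that of *DER1* (chr4:14444747-14444765) lies in the 5′ UTR, with its middle 203 bases after the start. Over whole lists, ERSE-I is in 23.8%, 5.43% and 10.6% of the bZIP28 peaks at 0, 12 and 24 h and in 16%, 0% and 5.29% of the bZIP60 peaks. Of the other elements, ERSE-II (ATTGGNNCACG) is in the 1000 bases before the start of 0 members and 0.361% of genes, UPRE-I (TGACGTGG or TGACGTGA) of 0 members and 4.74% of genes, and UPRE-II of 0 members and 0.00925% of genes. UPRE-III (TCATCG) is there in *EBS7*, *UBC32* and *DER2.1*, 3 of 9 members, and in 29% of genes. ERSE-I and ERSE-II share CACG and, on opposite strands, CCAAT, and CACG is also within UPRE-I on its other strand. A match is a string of letters in the window and no proof of a site.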

How the data were processed

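RNA-seq of 54 libraries (18 groups of 3 replicates) and 6 ChIP-seq peak lists were used. The authors trimmed the RNA reads with Cutadapt, mapped them to TAIR10 with TopHat2 and Bowtie, and deposited the FPKM values that Cufflinks gave. No scaling across libraries is stated. The score of each deposited peak is the MACS2 signalValue the authors obtained after selection for reproducibility between replicates. The submitters' processing notes name cutadapt 1.8.1, TopHat2 2.0.14, Bowtie2 2.2.4, Bowtie 1.1.2, Cufflinks 1.3.0 and MACS2 2.1.2.

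Groups were taken from the sample labels. Because the table holds FPKM and no read counts were used, limma 3.58.1 (R 4.3.3, mean-variance trend, two-sided, Benjamini-Hochberg adjustment over all genes) was run on log2(FPKM + 1). It covered 21864 of 34133 genes, those above 1 FPKM in 1 or more libraries. Members were called at an adjusted p under 0.01 between 2 groups, and DEGs also had an absolute log2 fold change over 1. Responses were compared on per-replicate log2 fold changes (Tm minus DMSO of the same replicate number, so this fit, unlike that of 2 groups, pairs the libraries) at an adjusted p under 0.05. With 3 replicates of pooled seedlings, p-values measure the spread between pools. Relative depth was read from 27384 low FPKM values, of which 77.9% lay within 0.1 of a whole multiple of a step, and an absolute depth is unknown, so no counting interval is given. Peaks and elements were read with Python 3.11.15 and numpy 2.4.6 on RefSeq TAIR10.1, which holds all 1143 peaks inside its chromosomes and has 742 of 762 promoter-class peaks (97.4%) within 1 kb of the named gene's start, and figures were drawn with matplotlib 3.10.9. The fits were tested on simulated data.

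Genes named are the 9 members, the genes of the wider ERAD list that are DEGs in at least 1 comparison of Tm with DMSO, for each member the 3 genes with the highest Pearson r, and *bZIP28*, *bZIP60* and *BiP3*. *HRD3B* was named as the paralog of a member after its values were seen. The members and lists were chosen with earlier results of these data known. Alternatives were a pseudocount of 0.1, median-ratio scaling, no filter (28053 genes) or a filter on a mean FPKM of 1 (19816 genes), no trend in limma, 1 fit over 54 libraries, other p thresholds, the replicate block or none, each replicate left out, stricter peaks, and 1 mismatch or 500 bases for elements.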

Additional observations from a re-analysis of the deposited data

Results flagged for a closer look

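For 14 combinations of member, genotype and time the log2 fold change of Tm over DMSO differed between a later time-point and 0 h of recovery by the limma test of that difference (adjusted p under 0.05), and each is given here as its difference. In *bzip28-2* it was *UBC32* at 24 h (-0.854). In *bzip60-2* these were *HRD1B* (0.711), *HRD3A* (0.661), *OS9* (0.719), *EBS7* (0.59), *DER1* (0.733) and *DER2.2* (0.901) at 12 h, and *DER2.1* at 24 h (-0.925). In Col-0 these were *HRD1B* at 12 h (0.615), and at 24 h *HRD3A* (-0.456), *OS9* (-0.805), *EBS7* (-0.467), *DER1* (-0.648) and *DER2.1* (-1.21). Among these 14, the differences at 12 h are all positive and those at 24 h all negative. Members that were not called did not all go that way. Examples are *DER2.2* in *bzip60-2* at 24 h (0.584) and *DER2.1* in Col-0 at 12 h (-0.214). Whether such a difference over time itself differs between genotypes was not tested.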

How the results depend on the processing

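The members called for Tm against DMSO kept their direction under each alternative. The deviations of same-numbered libraries had r between -0.28 and 0.13 over 27 pairs of Tm and DMSO, -0.26 and 0.39 over 18 of mutant and Col-0 after DMSO, -0.09 and 0.26 over 18 after Tm, and -0.05 and 0.32 over 6 of Col-0 DMSO times, and all 3 pairs exceeded 0.1 in 1 comparison (*bzip28-2* against Col-0 after Tm at 24 h, where the block called 0 members, as without it). The numbers were therefore not used as a block in tests of 2 groups, while the responses pair them as the study did. With the replicate block the counts of members that rose became 0 at 0 h in *bzip28-2*, *bzip60-2* and Col-0, 0 at 24 h in *bzip28-2* and *bzip60-2*, and 0 of 6 for *bzip60-2* against Col-0 after Tm at 12 h. Of all 21864 genes the block called 0, 0 and 3 at 0 h in *bzip28-2*, *bzip60-2* and Col-0. At 24 h it called 1 in *bzip28-2* and 264 in *bzip60-2*, so nearly all calls were lost and not those of the members alone. With no replicate block in the responses, 1 member was called at 0 h between *bzip60-2* and *bzip28-2* and 1 at 12 h between *bzip28-2* and Col-0, and for 24 h against 0 h the counts were 6 in *bzip28-2* and 2 in *bzip60-2*. Of all genes that fit called 0.402% and 4.18% in these comparisons of genotypes. For 24 h against 0 h it called 18.6% in *bzip28-2* and 19.3% in *bzip60-2*, in either direction. For *bzip28-2* at 24 h the 1 member that rose became 0 with no filter, 5 with a filter on the mean, 8 at an adjusted p under 0.05 and 8 in 1 fit over all 54 libraries. Of all genes these settings called 3.12%, 12.9%, 31% and 38.8% in either direction, against 8.13% in the main fit. The 1 lower response in *bzip28-2* at 24 h became 0 with a pseudocount of 0.1, with no filter and without a trend, 3 with a filter on the mean, 3 at an unadjusted p under 0.01 and 5 with median-ratio scaling, which also gave 3 in *bzip60-2*. In *bzip28-2* the share of all genes called there in either direction ran from 3.68% with no filter to 13.8% at an unadjusted p under 0.01. It was 8.69% in the main fit. An unadjusted p under 0.01 called 3 responses at 0 h for *bzip60-2* against Col-0 and 3 against *bzip28-2*, and 1 at 12 h for *bzip28-2* against Col-0 and 1 for *bzip60-2* against *bzip28-2*. In the same order it called 1.22%, 2.43%, 9.55% and 2.76% of all genes. The filter on the mean called the response of 1 member at 12 h for *bzip28-2* against Col-0, beside 5.09% of all genes. After Tm, the fit over 54 libraries called 1 member at 0, 12 and 24 h each for *bzip28-2* against Col-0, and an adjusted p under 0.05 called 1 at 12 h. In Col-0 after DMSO these settings called 4 and 5 members at 12 h and 1 and 1 at 24 h. For *bzip60-2* against Col-0 after Tm at 12 h, 2 members were still called with no filter and 2 without a trend. For these comparisons of levels, the share of all genes called under the same settings is not given here. The counts of members under them thus have no background. With each replicate left out in turn, the counts that rose after Tm ranged from 4 to 8 (*bzip28-2*, 0 h), 0 to 6 (*bzip28-2*, 24 h), 2 to 6 (*bzip60-2*, 0 h), 5 to 8 (*bzip60-2*, 24 h) and 2 to 7 (Col-0, 0 h). Likewise they ranged from 0 to 2 for *bzip60-2* against Col-0 after Tm at 12 h, 0 to 1 for Col-0 DMSO at 12 h against 0 h, 0 to 5 for higher responses at 12 h in *bzip60-2*, and 3 to 5 (Col-0), 0 to 3 (*bzip28-2*) and 0 to 2 (*bzip60-2*) for lower responses at 24 h. Most omissions also lowered the calls over all genes, for example from 230 to 25 in *bzip60-2* at 0 h without Tm replicate 1. Some log2 fold changes near 0, none of them called, changed sign: *HRD1A* in Col-0 at 24 h was -0.059 with median-ratio scaling and between -0.054 and 0.16 with 1 replicate left out, *HRD1A* at 0 h then lay between -0.20 and 0.035 in *bzip28-2* and between -0.0068 and 0.22 in *bzip60-2*, and *DER2.2* at 0 h in *bzip60-2* between -0.066 and 0.085. Peaks at or above the median score left 1 member in the bZIP28 list at 0 h. With 1 mismatch, 6 members had UPRE-I and 9 had UPRE-III. The share of all genes was not counted for these, so they show nothing particular to the members. For ERSE-I, 1 mismatch gave 3 members and 13.4% of all genes. The causes of these changes were not tested. With 3 pools a group and no absolute depth, the precision rests on the spread between pools.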
